A study of Mus musculus with 8 samples.

Results

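Gene expression was compared between 2 forebrain regions of undisturbed mice, the nucleus accumbens (NAc), which is the ventral part of the striatum, and the medial prefrontal cortex (mPFC). The comparison used the 2 NAc and the 2 mPFC libraries of mice that stayed in the home cage, 4 of the 8 libraries in the series, and all 33885 gene symbols that the NAc table and the mPFC table share. All mice were adult C57Bl6J males, and the labels name no altered allele, agent or stimulation for the mice of the 4 compared libraries. The mPFC samples are titled WT (wild type) and the home-cage NAc samples Ctrl (control), so the titles describe the regions in different terms. The other 4 libraries came from NAc of mice that were given 7.5 mg/kg cocaine in a chamber used for place preference and from mPFC of mice stressed by social defeat, both taken 15 min after the experience. These entered a comparison of directions only. No label ties a replicate to an animal of its own, and the spread behind each p-value, which is that between libraries of a region, may be technical.

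The NAc is built mainly of GABAergic medium spiny projection neurons, which fall into a class with D1 dopamine receptors and substance P and a class with D2 dopamine receptors and enkephalin. In the D1 class, dopamine acts through the olfactory-type G protein, adenylyl cyclase and the phosphoprotein DARPP-32. The mPFC is a layered cortex of glutamatergic pyramidal neurons and a smaller share of GABAergic interneurons, and transcription factors that set the identity of its layers are largely missing from striatal neurons.

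Total RNA was sequenced, and counts per gene were compared as counts per 1000000 counts of a library (CPM) after scaling by library size factors. Levels are given in the order replicate 1, replicate 2 for each region. The home-cage libraries held between 111901829 and 179479978 counts, so counting error was small for all but the rarest genes. Across genes, the 2 mPFC libraries correlated at r = 0.9988 on the log2 scale and the 2 NAc libraries at r = 0.9919. NAc replicate 2 lay nearer to mPFC (r = 0.984 and 0.9845) than NAc replicate 1 did (r = 0.9739 and 0.973). Genes are not independent replicates, and these values only describe the libraries.

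Defining genes of both tissues were checked first. *Drd2*, the D2 dopamine receptor, was at 276 and 58.1 CPM in NAc and 2.56 and 2.39 CPM in mPFC. *Slc17a7*, the vesicular glutamate transporter of cortical pyramidal neurons, was at 465 and 1045 CPM in NAc and 1288 and 1304 CPM in mPFC. *Tbr1*, a transcription factor of the cortical glutamatergic lineage that medium spiny neurons do not make, was at 102 and 205 CPM in NAc and 253 and 247 CPM in mPFC. The libraries labelled NAc thus held *Drd2* RNA far above the mPFC libraries, together with RNA of *Slc17a7* and *Tbr1*, genes of cortical glutamatergic neurons. Replicate 2 held less *Drd2* and more *Slc17a7* and *Tbr1* RNA than replicate 1. The cells that the *Slc17a7* and *Tbr1* RNA came from were not determined. Neither *Slc17a7* (log2 fold change -0.78 ± 0.37 (SE, n = 2 per region), adjusted p = 0.225) nor *Tbr1* (-0.70 ± 0.32, adjusted p = 0.207) passed edgeR's quasi-likelihood test. Parentheses after levels give, from here on, the log2 fold change of NAc over mPFC with its standard error (SE) and the adjusted p of that test. The summed level of the listed cortical glutamatergic markers was 3622 and 5321 CPM in the NAc libraries and 7802 and 8066 CPM in the mPFC libraries. Their part in each regional difference was not tested. In bulk tissue, fewer cells of a type and less RNA per cell cannot be told apart. Region coincides with the deposited table, so a difference in handling between the 2 sets of libraries cannot be told apart from region.

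Of 18300 genes tested with edgeR's quasi-likelihood test, 1283 were higher in NAc (7.01% of those tested) and 979 were lower (5.35%) at a Benjamini-Hochberg adjusted p under 0.05. An exact permutation test of a single gene, 2 libraries against 2, cannot go below a two-sided p of 0.33, so each call rests on spread shared across genes. Without NAc replicate 1 the test called 3041 genes higher and 2477 lower, and without NAc replicate 2 it called 4184 higher and 3864 lower. The lone NAc library was then assumed to vary as the mPFC pair does. Without either mPFC library it called 0 genes, with 2680 genes (replicate 1 left out) and 2724 genes (replicate 2 left out) at an unadjusted p under 0.05, since the spread then came from the NAc pair. Of the counts of called members in the lists below, the 66 that were above 0 all became 0 without either mPFC library, and 0 became smaller without either NAc library.

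A difference was taken as shown by both NAc libraries where the gene was called, each NAc library lay at least 2-fold from the mPFC mean in the same direction (on CPM + 0.1), and neither NAc library overlapped the mPFC pair. This held for 1085 genes, of which 630 were higher in NAc (3.44% of those tested) and 455 were lower (2.49%). Among them, 447 of the higher and 345 of the lower genes were protein coding, and 155 and 92 were long intergenic RNAs. NAc replicate 1 lay further from mPFC than replicate 2 in 746 of the 1085 genes. The median log2 ratio to mPFC over the higher genes was 1.96 in replicate 1 and 1.67 in replicate 2, and over the lower genes it was -1.84 and -1.55. In 680 of the 1085 genes the NAc libraries were within 1.5-fold of each other, and in 184 they were more than 2-fold apart. Of those 184 genes, 134 were higher in home-cage replicate 1, and all 134 were also higher in replicate 1 of the cocaine group. Of the other 50, 49 were also higher in cocaine replicate 2, so the libraries numbered 1 and 2 were split alike in both NAc groups.

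**Figure D1:**
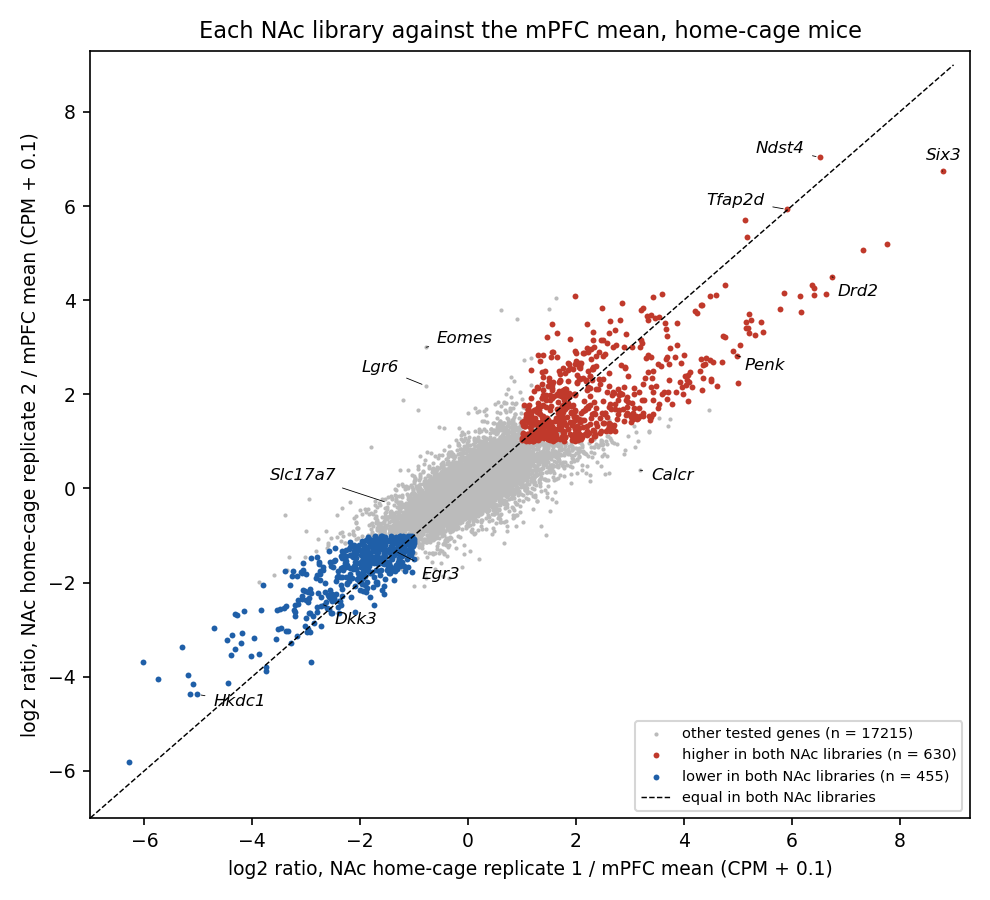
Log2 ratio of NAc home-cage replicate 1 (x axis) and replicate 2 (y axis) to the mean of the 2 mPFC libraries on CPM + 0.1, with 1 point per tested gene. The 630 genes higher in both NAc libraries are red and the 455 lower in both are blue. *Drd2* and *Penk* lie below the diagonal, further from mPFC in replicate 1, while *Ndst4* and *Tfap2d* lie on or above it.

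Receptors and neuropeptides of striatal projection neurons had the largest median difference of the 29 functional classes. Of 19 tested members, 10 were higher in NAc and 0 were lower, against 7.01% and 5.35% of all genes, and all 10 were shown by both NAc libraries. At an unadjusted p under 0.05, and by DESeq2, 0 were lower as well. Among the higher members were *Drd1*, *Drd2*, *Drd3*, *Adora2a*, *Gpr6*, *Penk*, *Tac1*, *Tacr1* and *Tacr3*. The median log2 ratio to mPFC over the 19 members was 3.21 in NAc replicate 1 and 1.59 in replicate 2, beside 0.0058 and -0.00038 over all tested genes. The test called 15 members higher and 2 lower without NAc replicate 1, and 17 and 0 without NAc replicate 2.

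Among the dopamine receptors, *Drd2* (chr9:49340627-49408177, GRCm38) differed by 6.08 ± 0.84, adjusted p = 0.0153, a fold of 67.5. *Drd1*, the D1 receptor (chr13:54051183-54055705), was at 117 and 32.6 CPM in NAc and 11.1 and 10.5 CPM in mPFC. It passed the test with a smaller difference (2.80 ± 0.59, adjusted p = 0.0421). *Drd3*, the D3 receptor, which is concentrated in the ventral striatum and the islands of Calleja, was at 37.3 and 6.19 CPM in NAc and 0.0516 and 0.0902 CPM in mPFC (8.28 ± 1.21, adjusted p = 0.0175). All 3 receptors were lower in NAc replicate 2 than in replicate 1, by 3.58-fold for *Drd1*, 4.75-fold for *Drd2* and 5.95-fold for *Drd3* on CPM + 0.1. Even the lower NAc value stayed above both mPFC values, but the regions did not overlap in any of the 2262 called genes.

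The D2 class of projection neurons was also seen in *Adora2a*, an adenosine receptor, at 125 and 25.4 CPM in NAc and 1.34 and 1.4 CPM in mPFC (5.78 ± 0.85, adjusted p = 0.018). *Gpr6*, an orphan receptor of the same neurons, was at 41.1 and 9.83 CPM in NAc and 0.383 and 0.406 CPM in mPFC (6.01 ± 0.81, adjusted p = 0.0147). *Penk*, the precursor of the enkephalins, was at 579 and 129.6 CPM in NAc and 17.6 and 18.8 CPM in mPFC (4.28 ± 0.73, adjusted p = 0.0256). The D1 class was seen in *Tac1*, the precursor of substance P, at 88.2 and 24.6 CPM in NAc and 5.3 and 5.21 CPM in mPFC (3.42 ± 0.61, adjusted p = 0.0284). Genes of both classes were thus higher in NAc, and all 4 were lower in NAc replicate 2. *Tacr1*, the receptor of substance P, which cholinergic and other interneurons carry in the striatum, behaved otherwise and was nearly level in the 2 NAc libraries, at 22 and 21 CPM in NAc and 1.96 and 2.6 CPM in mPFC (3.24 ± 0.17, adjusted p = 0.0023). Several known striatal members did not pass: *Pdyn*, the precursor of the dynorphins, was at 118 and 25 CPM in NAc and 12.5 and 14.7 CPM in mPFC (2.39 ± 0.70, adjusted p = 0.0854), and *Oprm1*, the mu opioid receptor, was at 57.8 and 27 CPM in NAc and 16.2 and 15.3 CPM in mPFC (1.43 ± 0.35, adjusted p = 0.0593). Their values lay higher in both NAc libraries than in mPFC, with a spread between the NAc libraries that the test did not exceed.

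The signalling cascade below these receptors followed. Of 21 tested members of the striatal cAMP and G-protein class, 11 were higher in NAc (52.4%) and 1, *Rgs4*, was lower (4.76%). Over all genes the shares were 7.01% and 5.35%. The median log2 ratio was 2.37 in NAc replicate 1 and 1.03 in replicate 2. Leaving out NAc replicate 1 gave 15 higher and 3 lower, and leaving out replicate 2 gave 17 and 1. *Gnal*, the olfactory-type G-protein alpha subunit that couples D1 and adenosine receptors to cyclase, was at 579.5 and 278 CPM in NAc and 122 and 122 CPM in mPFC (1.81 ± 0.35, adjusted p = 0.0333). *Gng7*, its gamma partner, was at 885 and 338 CPM in NAc and 79.3 and 84.1 CPM in mPFC (2.90 ± 0.46, adjusted p = 0.0213), and *Adcy5*, the main striatal adenylyl cyclase, was at 1371 and 551 CPM in NAc and 213 and 243 CPM in mPFC (2.07 ± 0.43, adjusted p = 0.0402). *Ppp1r1b*, which encodes DARPP-32, was at 567 and 188 CPM in NAc and 47.1 and 46.6 CPM in mPFC (3.01 ± 0.53, adjusted p = 0.0266). Each of these 4 was higher in NAc replicate 1 than in replicate 2. None of the NAc values reached down to mPFC, which holds for every gene called higher.

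The class also holds phosphodiesterases, which end cyclic nucleotide signals, and RGS proteins, which shorten G-protein signalling. *Rgs9*, the striatal regulator of G-protein signalling, was at 635 and 188 CPM in NAc and 30.4 and 29.6 CPM in mPFC (3.78 ± 0.59, adjusted p = 0.0207). *Pde1c* was at 330.1 and 90.7 CPM in NAc and 14.9 and 13.2 CPM in mPFC (3.90 ± 0.63, adjusted p = 0.022). *Pde7b* was at 514 and 188 CPM in NAc and 64.6 and 74.4 CPM in mPFC (2.33 ± 0.47, adjusted p = 0.0377) and *Pde1b* at 580.0 and 225 CPM in NAc and 89.5 and 92.4 CPM in mPFC (2.15 ± 0.44, adjusted p = 0.0392). *Ptpn7*, a tyrosine phosphatase with low counts, had 458 and 111 reads in NAc and 3 and 5 in mPFC (adjusted p = 0.0173 by edgeR). In the other direction, *Rgs4*, a regulator abundant in cortex, was at 99.3 and 71 CPM in NAc and 196 and 204 CPM in mPFC (-1.23 ± 0.18, adjusted p = 0.0175). Its NAc replicate 1 was above replicate 2, the order of *Drd2* and not that of *Slc17a7*, so replicate 2 lay further from mPFC. In the wider lists, 6 of 26 phosphodiesterases and cyclases were higher and 2 lower, 3 of 17 RGS genes were higher and 3 lower, and 2 of 26 G-protein subunits, *Gng7* and *Gnal*, were higher and 0 lower (2 lower at an unadjusted p under 0.05 and 2 by DESeq2). The 7.69% of G-protein subunits called higher is near the 7.01% of all genes. The shares were 23.1% higher and 7.69% lower for phosphodiesterases and cyclases, and 17.65% each way for RGS genes. Of all genes 5.35% were lower. *Pde10a*, a phosphodiesterase of medium spiny neurons, missed the threshold (1.92 ± 0.47, adjusted p = 0.0589).

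Transcription factors of the striatal lineage had the highest share of calls of the 29 functional classes. Of 24 tested members 16 were higher in NAc (66.7%) and 1, *Tshz2*, was lower (4.17%), beside 7.01% and 5.35% of all genes. Of the 16, 15 were shown by both NAc libraries. The median log2 ratio was 1.79 in NAc replicate 1 and 1.46 in replicate 2. Without NAc replicate 1 the calls were 19 higher and 2 lower, and without replicate 2 they were the same in number. *Six3* (chr17:85613608-85629302), a homeobox gene of the striatal D2 lineage, had 9898 and 1840 reads in the NAc libraries and 2 and 4 in the mPFC libraries. *Isl1*, a LIM homeobox gene of the D1 lineage and of cholinergic neurons, had 1474 and 202 reads in NAc and 2 and 2 in mPFC. Both factors were thus close to the lower limit of counting in mPFC (adjusted p = 0.00912 and 0.0211 by edgeR), and a fold against so few reads has no stable value. The folds given for *Drd3*, *Gsx2*, *Crabp1*, *Nkx2-1*, *Ankk1* and *Slc6a3* also rest on few mPFC reads, between 4 and 10 in each library. *Gsx2*, a homeobox gene of the ganglionic eminence, was low in NAc too, at 0.612 and 1.03 CPM in NAc and 0.0295 and 0.0541 CPM in mPFC (4.30 ± 0.48, adjusted p = 0.00968). Other called members were *Zfp503*, *Meis1*, *Meis2*, *Sp8*, *Sp9*, *Dlx2*, *Dlx5*, *Dlx6*, *Tshz1*, *Bcl11b* and *Zfp521*. *Bcl11b*, which encodes CTIP2 and is used by medium spiny neurons and deep-layer cortical neurons alike, was at 481 and 380.3 CPM in NAc and 159.9 and 169 CPM in mPFC (1.39 ± 0.15, adjusted p = 0.00912). *Foxp1* (0.93 ± 0.45, adjusted p = 0.225) and *Foxp2* (0.97 ± 0.58, adjusted p = 0.316), both made in striatum and cortex, did not pass.

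Retinoic acid signalling joins this class through its receptors. *Rarb*, the beta retinoic acid receptor (chr14:16430839-16819156), was at 727 and 166 CPM in NAc and 16 and 16.8 CPM in mPFC (4.77 ± 0.74, adjusted p = 0.0202). *Rxrg*, a retinoid X receptor that pairs with it, was at 94 and 38.7 CPM in NAc and 5.33 and 6.74 CPM in mPFC (3.46 ± 0.45, adjusted p = 0.0135). Of 18 tested genes of retinoic acid synthesis, reception and binding, 5 were higher in NAc (*Rarb*, *Rxrg*, *Rarg*, *Crabp1* and *Stra6*) and 3 were lower (*Aldh1a3*, *Aldh1a2* and *Rbp4*). These shares were 27.8% and 16.7%, beside 7.01% and 5.35% of all genes. *Crabp1*, a cytosolic binding protein, was at 1.05 and 0.795 CPM in NAc and 0.0516 and 0.0541 CPM in mPFC (4.11 ± 0.34, adjusted p = 0.00485). *Aldh1a3*, an enzyme that makes retinoic acid, was at 0.18 and 0.383 CPM in NAc and 4.09 and 4.42 CPM in mPFC (-3.94 ± 0.36, adjusted p = 0.00665). Receptors were thus higher and synthesizing enzymes lower in NAc, among the members that passed. The enzyme gene *Aldh1a2*, also a listed marker of meningeal fibroblasts, was at 0.483 and 0.672 CPM in NAc and 1.31 and 1.425 CPM in mPFC. It was not 2-fold lower in both NAc libraries, and the part of meningeal tissue was not tested. The other receptors *Rara* (-0.037 ± 0.13, adjusted p = 0.872) and *Rxra* (0.20 ± 0.11, adjusted p = 0.263) did not pass.

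The promoter of *Rarb* is shown because it holds a retinoic acid response element, the pair of short repeats through which the receptor is known to act on its own gene. The 90 bases before a *Rarb* start (chr14:16575477-16575566, minus strand, GRCm38.p6, RefSeq) read as follows, with both repeats in capitals and a spacer of 5 bases between them.
Rarb: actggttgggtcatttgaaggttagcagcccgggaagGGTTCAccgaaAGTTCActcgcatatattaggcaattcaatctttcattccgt
The element lies 53 to 37 bases before the start. The pattern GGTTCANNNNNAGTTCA, searched on both strands, was found in 2 of 32851 promoter windows (0.00609%), windows that run from 250 bases before to 50 bases after a start. This pattern holds the exact bases of both *Rarb* repeats, so a *Rarb* window was bound to be found. Other forms of the element were not searched, and the share does not tell how common such elements are. The counts are per gene and do not tell which *Rarb* start was used.

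Cortical transcription factors differed mainly in the other direction. Of 28 tested transcription factors of cortical projection neurons, 12 were lower in NAc and 2 were higher, against 5.35% and 7.01% of all genes, and the median log2 ratio was -1.14 in NAc replicate 1 and -0.77 in replicate 2. Without NAc replicate 1 the calls were 19 lower and 6 higher, and without replicate 2 they were 20 and 5. *Fezf2*, which sets subcortical projection neurons, was at 2.95 and 9.06 CPM in NAc and 55.2 and 63.5 CPM in mPFC (-3.31 ± 0.53, adjusted p = 0.0213). *Otx1*, a homeobox gene of deep layers, was at 1.36 and 2.66 CPM in NAc and 9.6 and 9.73 CPM in mPFC (-2.27 ± 0.32, adjusted p = 0.0161). Both were lower in NAc replicate 1 than in replicate 2, the order of *Slc17a7*.

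*Zfpm2*, a cofactor of deep-layer neurons, was at 44 and 62.1 CPM in NAc and 243 and 217 CPM in mPFC (-2.12 ± 0.19, adjusted p = 0.00668). *Cux2*, a homeobox gene of upper layers, was at 76.5 and 60.5 CPM in NAc and 234 and 284 CPM in mPFC (-1.92 ± 0.17, adjusted p = 0.00642), and here NAc replicate 2 was the lower of the NAc pair. Other lower members were *Ldb2*, *Lmo4*, *Mef2c*, *Zbtb18*, *Lhx2*, *Etv1* and *Emx2*. The 2 higher members were *Cux1* (1.14 ± 0.15, adjusted p = 0.0139) and *Bcl11a* (0.82 ± 0.11, adjusted p = 0.015), both of which striatal cells are also known to make.

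Markers of cortical glutamatergic neurons formed a second list, which shares some members with the first. Of 22 tested, 5 were lower in NAc (among them *Fezf2*, *Tshz3*, *Nrgn* and *Lamp5*) and 1, *Foxo1*, was higher. These shares were 22.7% and 4.55%, beside 5.35% and 7.01% of all genes. The median log2 ratio was -1.09 in NAc replicate 1 and -0.34 in replicate 2. Without NAc replicate 1 the calls were 13 lower and 6 higher, and without replicate 2 they were 16 and 4. *Nrgn*, the calmodulin-binding protein neurogranin, was at 228 and 428 CPM in NAc and 1140 and 1180 CPM in mPFC (-1.82 ± 0.31, adjusted p = 0.0248). *Tshz3* was at 18.4 and 27.1 CPM in NAc and 118 and 135 CPM in mPFC (-2.48 ± 0.21, adjusted p = 0.00562), and *Lamp5* was at 16 and 18.8 CPM in NAc and 52.9 and 51.1 CPM in mPFC (-1.58 ± 0.12, adjusted p = 0.0041). *Foxo1*, a forkhead factor, was at 227 and 98.4 CPM in NAc and 33 and 33.1 CPM in mPFC (2.30 ± 0.39, adjusted p = 0.0255). *Lamp5* differed little between the NAc libraries, while *Nrgn* and *Foxo1* followed the split between the numbers.

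**Figure D2:**
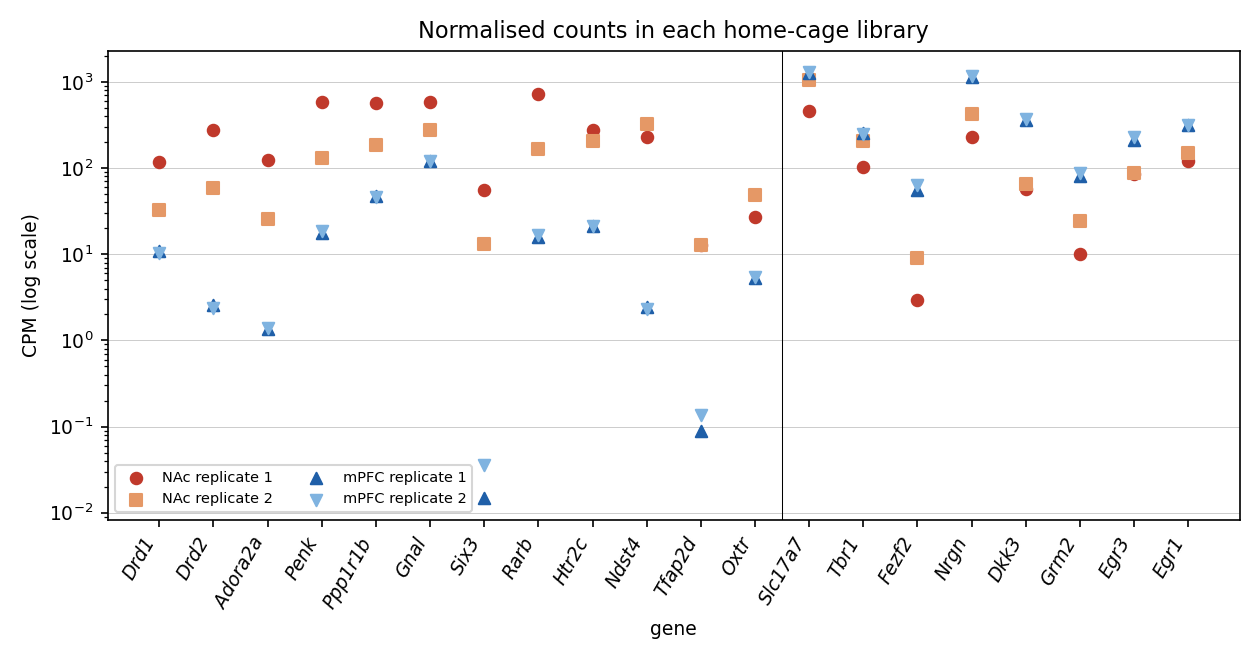
CPM (log scale) of genes described in the text in each of the 4 home-cage libraries, with striatal and other NAc-side genes to the left of the line and cortical and activity genes to the right. The 2 mPFC libraries nearly coincide for most genes, while the NAc libraries are several-fold apart for *Drd1*, *Drd2*, *Adora2a*, *Penk* and *Fezf2* and close together for *Tfap2d*, *Dkk3* and *Egr3*.

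Of 24 tested genes of transmitter synthesis and transport, 3 were higher in NAc (12.5%) and 1 was lower (4.17%), beside 7.01% and 5.35% of all genes. *Gad1*, which makes GABA, was at 304 and 239 CPM in NAc and 150.3 and 152 CPM in mPFC (0.85 ± 0.15, adjusted p = 0.0268). *Gad2*, the second GABA-synthesizing enzyme, was at 473 and 194 CPM in NAc and 116 and 113 CPM in mPFC and did not pass (1.54 ± 0.41, adjusted p = 0.0698). *Chat*, which makes acetylcholine in the cholinergic interneurons of striatum and in basal forebrain neurons, was at 8.07 and 2.33 CPM in NAc and 0.42 and 0.361 CPM in mPFC (3.73 ± 0.65, adjusted p = 0.0267). All NAc values of these 3 genes were above the mPFC values, and replicate 1 was the higher. *Slc6a3*, the dopamine transporter, was low everywhere, at 0.612 and 0.918 CPM in NAc and 0.0736 and 0.0631 CPM in mPFC (3.46 ± 0.37, adjusted p = 0.00904). The single lower gene was *Slc1a2* (-0.69 ± 0.14, adjusted p = 0.04), the glutamate transporter of astrocytes.

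Ionotropic glutamate receptors differed in subunits and in auxiliary proteins. Of 21 AMPA and kainate receptor genes, 5 were higher in NAc (23.8%) and 2 were lower (9.52%), beside 7.01% and 5.35% of all genes. *Gria1*, a pore-forming AMPA subunit, was at 1673 and 1740 CPM in NAc and 784 and 878 CPM in mPFC (1.04 ± 0.13, adjusted p = 0.0132). *Shisa9*, an auxiliary protein of AMPA receptors, was at 971 and 591 CPM in NAc and 272 and 294 CPM in mPFC (1.46 ± 0.25, adjusted p = 0.0257). *Cacng5*, a transmembrane AMPA receptor regulator, was at 23.9 and 38.2 CPM in NAc and 6.14 and 5.87 CPM in mPFC (2.37 ± 0.24, adjusted p = 0.00778), and it was higher in NAc replicate 2. *Neto2* and *Grik3* were the other higher members, and *Gria4* and *Cacng2* were the lower ones, without a 2-fold difference in both NAc libraries. *Gria2* (0.20 ± 0.12, adjusted p = 0.331) and *Gria3* (0.12 ± 0.12, adjusted p = 0.518) did not pass.

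Of 16 NMDA, delta and metabotropic glutamate receptors, 1 was higher in NAc (6.25%) and 2 were lower (12.5%), beside 7.01% and 5.35% of all genes, and all 3 were metabotropic. *Grm4*, a presynaptic receptor, was at 188 and 99.7 CPM in NAc and 42 and 47.6 CPM in mPFC (1.68 ± 0.31, adjusted p = 0.0291). *Grm2*, a presynaptic receptor of cortical terminals, was at 9.94 and 24.4 CPM in NAc and 81.5 and 88 CPM in mPFC (-2.31 ± 0.42, adjusted p = 0.0288). *Grm8*, another presynaptic receptor, was at 73 and 113 CPM in NAc and 379.9 and 346 CPM in mPFC (-1.96 ± 0.23, adjusted p = 0.0106). The first was higher and the other pair lower in NAc, each with the same order of the NAc libraries as *Drd2* or *Slc17a7*. No NMDA subunit passed: the values for *Grin1* (-0.22 ± 0.15, adjusted p = 0.369), *Grin2a* (0.20 ± 0.13, adjusted p = 0.352) and *Grin2b* (0.33 ± 0.13, adjusted p = 0.151) did not exceed the spread.

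Inhibitory receptors gave 3 calls in each direction among 20 tested genes, 15% each way, beside 7.01% higher and 5.35% lower of all genes. *Gabrb2*, a beta subunit of the GABA-A receptor, was at 181 and 152 CPM in NAc and 276 and 253 CPM in mPFC (-0.67 ± 0.13, adjusted p = 0.0365). *Gabra3* was also lower, and *Gabra2*, *Gabrg1* and *Gabre* were higher.

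Monoamine and muscarinic receptors were divided evenly, with 5 of 25 tested members higher in NAc and 5 lower. This was 20% each way, beside 7.01% higher and 5.35% lower of all genes. *Htr2c*, the 5-HT2C serotonin receptor, was at 278 and 205 CPM in NAc and 21.4 and 21.5 CPM in mPFC (3.49 ± 0.18, adjusted p = 0.0023), a fold of 11.2. *Htr1d*, an inhibitory serotonin receptor, was at 10.6 and 3.56 CPM in NAc and 0.346 and 0.244 CPM in mPFC (4.58 ± 0.62, adjusted p = 0.015). *Chrm5*, *Adra2a* and *Adra2c* were also higher. On the other side, all 3 alpha-1 adrenergic receptors were lower. *Adra1d* was at 1.78 and 6.26 CPM in NAc and 45.7 and 52.8 CPM in mPFC (-3.62 ± 0.59, adjusted p = 0.0218), and *Adra1b* was at 4.29 and 6.77 CPM in NAc and 40.5 and 41.9 CPM in mPFC (-2.90 ± 0.23, adjusted p = 0.00477), and *Adra1a* differed by less (-1.06 ± 0.14, adjusted p = 0.0132). Thus alpha-1 receptors were lower and the alpha-2 members *Adra2a* (1.96 ± 0.33, adjusted p = 0.0249) and *Adra2c* (0.94 ± 0.14, adjusted p = 0.0182) were higher in NAc. *Chrm3* and *Htr7* completed the lower set.

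Peptides outside the opioid and tachykinin families were mostly lower where they were called, 5 of 20 (25%) against 3 higher (15%). Over all genes the shares were 5.35% lower and 7.01% higher. *Grp*, gastrin-releasing peptide, was at 0.303 and 0.846 CPM in NAc and 8.04 and 9.51 CPM in mPFC (-3.96 ± 0.47, adjusted p = 0.0108). *Crh*, the corticotropin-releasing hormone, was at 0.41 and 0.578 CPM in NAc and 1.95 and 2.31 CPM in mPFC (-2.11 ± 0.25, adjusted p = 0.0107). *Nts*, the precursor of neurotensin, was at 2.02 and 1.01 CPM in NAc and 0.0884 and 0.108 CPM in mPFC (3.95 ± 0.46, adjusted p = 0.0105), in the opposite direction. *Npw*, neuropeptide W, was lower with few reads, 1 and 1 in NAc and 16 and 22 in mPFC. *Adcyap1* and *Vgf* were also lower, and *Rln1* and *Scg2* also higher. *Sst* (0.023 ± 0.19, adjusted p = 0.95) and *Npy* (-0.19 ± 0.16, adjusted p = 0.482), peptides of interneurons in both regions, did not pass.

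Receptors for peptides showed the regions from the receiving side. Of 28 tested, 3 were higher in NAc (10.7%) and 5 were lower (17.9%), beside 7.01% and 5.35% of all genes. All 8 were shown by both NAc libraries. *Oxtr*, the oxytocin receptor, was at 27.2 and 48.7 CPM in NAc and 5.37 and 5.46 CPM in mPFC (2.81 ± 0.29, adjusted p = 0.00823). *Nmbr*, the receptor of neuromedin B, was at 15.5 and 24.3 CPM in NAc and 2.38 and 2.14 CPM in mPFC (3.14 ± 0.25, adjusted p = 0.00477). *Galr1*, a galanin receptor, was at 0.86 and 0.39 CPM in NAc and 0.103 and 0.144 CPM in mPFC (2.35 ± 0.50, adjusted p = 0.042). *Oxtr* and *Nmbr* were higher in NAc replicate 2 than in replicate 1, the reverse of the order of *Drd2*. *Rxfp1*, a relaxin receptor, was at 4.06 and 5.8 CPM in NAc and 40.1 and 36.5 CPM in mPFC (-2.96 ± 0.20, adjusted p = 0.00338). *Crhr1*, the receptor of corticotropin-releasing hormone, was at 15 and 17.7 CPM in NAc and 37.8 and 41.4 CPM in mPFC (-1.27 ± 0.12, adjusted p = 0.00717), so that *Crh* and *Crhr1* were both lower in NAc. *Mc4r*, *Cckbr* and *Hcrtr1* were the other lower receptors.

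Ion channel genes were called in both directions. Among 54 potassium channel genes 6 were higher in NAc (11.1%) and 8 were lower (14.8%), beside 7.01% and 5.35% of all genes. *Kcna5* was at 22.9 and 11.6 CPM in NAc and 1.77 and 1.89 CPM in mPFC (3.24 ± 0.35, adjusted p = 0.00912). *Kcnn3*, a calcium-activated channel of small conductance, was at 200.5 and 139.7 CPM in NAc and 40.3 and 45.4 CPM in mPFC (1.99 ± 0.20, adjusted p = 0.00763). *Kcnip1*, which binds A-type channels, was at 151 and 93.6 CPM in NAc and 31.3 and 36.6 CPM in mPFC (1.85 ± 0.25, adjusted p = 0.0143). *Kcns1*, a silent subunit, was at 2.83 and 4.05 CPM in NAc and 9.08 and 10.3 CPM in mPFC (-1.49 ± 0.21, adjusted p = 0.0153). These 4 were the potassium channel genes with at least a 2-fold difference in both NAc libraries, and the other called members, among them *Kcnh7*, *Kcna2*, *Kcnd3* and *Kcnc2*, differed by less in at least 1 of them.

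Of 36 calcium, sodium and HCN channel genes 5 were higher in NAc (13.9%) and 2 were lower (5.56%), beside 7.01% and 5.35% of all genes. *Scn4b*, an auxiliary sodium channel subunit known from striatum, was at 339.9 and 96.7 CPM in NAc and 36 and 30.5 CPM in mPFC (2.71 ± 0.59, adjusted p = 0.0436). *Cacna1c*, the pore of an L-type calcium channel, was at 1097 and 1018 CPM in NAc and 401 and 474 CPM in mPFC (1.27 ± 0.14, adjusted p = 0.00963). *Cacnb2*, a beta subunit of such channels, was at 794 and 564 CPM in NAc and 200 and 196 CPM in mPFC (1.78 ± 0.19, adjusted p = 0.00904). The L-type subunits were within 1.5-fold in the 2 NAc libraries, while *Scn4b* was 3.51-fold higher in replicate 1. *Trpc6*, a cation channel of the TRPC family, was at 3.03 and 5.99 CPM in NAc and 35.2 and 37.7 CPM in mPFC (-3.02 ± 0.33, adjusted p = 0.00912).

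Kinases and calcium sensors gave the following. Of 26 calmodulin-dependent kinases, protein kinase C genes and relatives 6 were higher in NAc and 3 were lower. *Prkch*, a protein kinase C, was at 175 and 38.4 CPM in NAc and 7.31 and 7.92 CPM in mPFC (3.81 ± 0.73, adjusted p = 0.0332). *Dgkb*, a diacylglycerol kinase, was at 1068 and 565 CPM in NAc and 272 and 264 CPM in mPFC (1.60 ± 0.31, adjusted p = 0.0332). *Camk2n1*, an inhibitor of CaMKII, was at 329 and 498 CPM in NAc and 1111 and 1097 CPM in mPFC (-1.42 ± 0.22, adjusted p = 0.0202). *Camk1g* was at 25.5 and 25.7 CPM in NAc and 63.2 and 66.6 CPM in mPFC (-1.34 ± 0.09, adjusted p = 0.00338), with nearly equal NAc values. Among 24 calcium-binding proteins 4 were higher (16.7%) and 3 were lower (12.5%), beside the same 7.01% and 5.35% of all genes. *Necab2*, which binds the adenosine receptor of *Adora2a*, was at 124 and 65.2 CPM in NAc and 17.6 and 19.7 CPM in mPFC (2.34 ± 0.31, adjusted p = 0.0143). *Pvalb*, the parvalbumin of fast-spiking interneurons, was at 1.65 and 3.06 CPM in NAc and 14.3 and 14 CPM in mPFC (-2.60 ± 0.30, adjusted p = 0.0103), and *Calb2*, calretinin, was at 15.5 and 37.5 CPM in NAc and 5.15 and 5.46 CPM in mPFC (2.32 ± 0.42, adjusted p = 0.0288). RNA of the interneuron gene *Pvalb* was therefore lower and that of *Calb2* higher in NAc.

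Adhesion and guidance genes, which wire circuits in development and stay expressed in the adult, were called in both directions. Of 51 cadherins and synaptic adhesion genes, 7 were higher in NAc (13.7%) and 10 were lower (19.6%), beside 7.01% and 5.35% of all genes. *Tenm3*, a teneurin, was at 1055 and 1467 CPM in NAc and 198 and 195 CPM in mPFC (2.68 ± 0.20, adjusted p = 0.00427). *Cdh4* was at 270.2 and 266 CPM in NAc and 71 and 94.8 CPM in mPFC (1.69 ± 0.17, adjusted p = 0.0073). *Slitrk6* was at 2.4 and 1.21 CPM in NAc and 0.206 and 0.189 CPM in mPFC (3.19 ± 0.41, adjusted p = 0.0132). *Cbln2*, a secreted synapse organizer, was at 3.64 and 10.3 CPM in NAc and 31 and 31 CPM in mPFC (-2.16 ± 0.47, adjusted p = 0.044). *Tenm3* was higher in NAc replicate 2 and *Cdh4* level in both, so neither has the order of the dopamine receptors.

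Of 52 axon guidance genes, 9 were higher in NAc (17.3%) and 10 were lower (19.2%), beside 7.01% and 5.35% of all genes. *Ntn1*, netrin-1, was at 143 and 38.9 CPM in NAc and 12.7 and 14.6 CPM in mPFC (2.74 ± 0.61, adjusted p = 0.0459). The repellents *Slit2* and *Slit3* were higher too. *Ephb6* was at 39.6 and 37.1 CPM in NAc and 199.8 and 225 CPM in mPFC (-2.47 ± 0.12, adjusted p = 0.00206), and *Ephb2* was at 21.9 and 20.7 CPM in NAc and 56.8 and 66.4 CPM in mPFC (-1.53 ± 0.12, adjusted p = 0.00433). With *Ephb3*, 3 EphB receptors were lower in NAc, while their ligand gene *Efnb3* was higher (1.02 ± 0.16, adjusted p = 0.0211). *Robo3*, a receptor of the Robo family, was at 0.848 and 2.16 CPM in NAc and 12.9 and 14.2 CPM in mPFC (-3.18 ± 0.44, adjusted p = 0.0152). The EphB values were nearly equal in the 2 NAc libraries.

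In the vesicle release machinery 4 of 41 genes were higher in NAc and 4 were lower. *Sv2c*, a synaptic vesicle protein of the basal ganglia, was at 321 and 119.9 CPM in NAc and 24.9 and 23.2 CPM in mPFC (3.19 ± 0.48, adjusted p = 0.0183). *Doc2b*, a calcium sensor for spontaneous release, was at 126 and 99.8 CPM in NAc and 15.4 and 17.8 CPM in mPFC (2.76 ± 0.16, adjusted p = 0.00245). *Syt9* was at 32.6 and 39.8 CPM in NAc and 15.2 and 14.6 CPM in mPFC (1.28 ± 0.13, adjusted p = 0.00749). *Rims3*, an active zone protein, was at 52.5 and 43.7 CPM in NAc and 172 and 173 CPM in mPFC (-1.84 ± 0.13, adjusted p = 0.00362). The share of calls was 9.76% in each direction, beside 7.01% and 5.35% of all genes. Of 27 postsynaptic scaffold and plasticity genes, 2 were higher and 2 lower, 7.41% in each direction. *Actn2*, which links receptors to actin, was at 95.7 and 49.6 CPM in NAc and 16.3 and 18.6 CPM in mPFC (2.06 ± 0.32, adjusted p = 0.0198), and *Psd3* was at 424 and 386 CPM in NAc and 679 and 622 CPM in mPFC (-0.68 ± 0.13, adjusted p = 0.03). The general scaffolds *Dlg4* (-0.38 ± 0.12, adjusted p = 0.108), *Shank3* (-0.061 ± 0.14, adjusted p = 0.799) and *Homer1* (-0.23 ± 0.12, adjusted p = 0.245) did not pass.

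Extracellular matrix genes were called in both directions, 8 of 35 higher in NAc (22.9%) and 6 lower (17.1%), beside 7.01% and 5.35% of all genes. *Adamts3*, a matrix protease, was at 292 and 141 CPM in NAc and 37.2 and 39.7 CPM in mPFC (2.49 ± 0.35, adjusted p = 0.0161). *Col11a1* was at 23.9 and 9.05 CPM in NAc and 3.67 and 3.56 CPM in mPFC (2.19 ± 0.46, adjusted p = 0.0406). *Col12a1* was at 5.66 and 10.8 CPM in NAc and 65.4 and 63.1 CPM in mPFC (-2.97 ± 0.31, adjusted p = 0.00862), and *Col5a1* was at 3.46 and 6.57 CPM in NAc and 26.9 and 32.5 CPM in mPFC (-2.57 ± 0.32, adjusted p = 0.0122). Different collagens were thus higher and lower. Of the link proteins of perineuronal nets, the nets around fast-spiking interneurons, *Hapln1* (-0.57 ± 0.13, adjusted p = 0.0452) and *Hapln4* (-1.75 ± 0.21, adjusted p = 0.0109) were lower in NAc, and *Acan* (-0.44 ± 0.24, adjusted p = 0.267), the core of these nets, did not pass.

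Wnt, TGF-beta, FGF and neurotrophic genes gave 8 of 55 higher and 8 lower, 14.55% each way, beside 7.01% higher and 5.35% lower of all genes. *Dkk3*, a secreted member of the Dickkopf family, was at 57.2 and 65.9 CPM in NAc and 359.5 and 374 CPM in mPFC (-2.57 ± 0.13, adjusted p = 0.00209). *Wnt10a* was at 0.938 and 1.92 CPM in NAc and 7 and 7.24 CPM in mPFC (-2.33 ± 0.34, adjusted p = 0.0179). *Fzd5*, a Wnt receptor, was at 11.4 and 6.99 CPM in NAc and 1.66 and 1.74 CPM in mPFC (2.43 ± 0.26, adjusted p = 0.00907). *Gdnf*, a survival factor for dopamine neurons, was at 3.42 and 1.17 CPM in NAc and 0.273 and 0.307 CPM in mPFC (2.99 ± 0.57, adjusted p = 0.0325). *Dkk3* was nearly level in the NAc libraries, and *Gdnf* was 2.77-fold higher in replicate 1. *Bdnf*, which cortical neurons supply to striatum, was at 5.6 and 15.1 CPM in NAc and 28.8 and 30 CPM in mPFC and did not pass (-1.51 ± 0.45, adjusted p = 0.0871).

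Immediate early genes, which neuronal activity switches on, also differed between the regions of these unexposed mice. Of 28 tested, 6 were lower in NAc (*Egr1*, *Egr2*, *Egr3*, *Ier5*, *Arc* and *Fosb*) and 0 were higher (1 at an unadjusted p under 0.05 and 0 by DESeq2), against 5.35% and 7.01% of all genes. The median log2 ratio was -0.70 in NAc replicate 1 and -0.28 in replicate 2. Without NAc replicate 1 the calls were 13 lower and 5 higher, and without replicate 2 they were 21 lower and 1 higher. *Egr1* was at 122 and 149 CPM in NAc and 316 and 316 CPM in mPFC (-1.22 ± 0.14, adjusted p = 0.00968). *Egr2* was at 1.89 and 2.08 CPM in NAc and 5.24 and 6.52 CPM in mPFC (-1.56 ± 0.17, adjusted p = 0.00922), and *Egr3* was at 84.8 and 87.9 CPM in NAc and 209 and 229 CPM in mPFC (-1.35 ± 0.11, adjusted p = 0.00482). All 3 Egr factors were lower in NAc replicate 1, the order of *Slc17a7*. The gap on CPM + 0.1 was 1.23-fold for *Egr1*, 1.09-fold for *Egr2* and 1.04-fold for *Egr3*, beside 4.75-fold for *Drd2* in the other order. *Arc*, the activity-regulated cytoskeletal gene, was at 38.3 and 62.7 CPM in NAc and 104 and 128 CPM in mPFC (-1.199 ± 0.25, adjusted p = 0.0422). *Fos* was at 1.99 and 7.73 CPM in NAc and 8.89 and 10.1 CPM in mPFC and did not pass (-0.97 ± 0.59, adjusted p = 0.321), with only NAc replicate 1 far from mPFC.

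The promoters of *Egr2* (chr10:67535475-67542188) are shown because they hold CArG boxes, the sites through which serum response factor is known to switch on Egr genes. The 90 bases before 2 *Egr2* starts (plus strand, GRCm38.p6, RefSeq) read as follows, with the box in capitals.
Egr2, chr10:67537476-67537565: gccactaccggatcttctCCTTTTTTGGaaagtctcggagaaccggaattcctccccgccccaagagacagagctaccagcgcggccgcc
Egr2, chr10:67537779-67537868: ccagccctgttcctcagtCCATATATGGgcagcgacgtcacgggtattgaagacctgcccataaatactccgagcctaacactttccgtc
In both stretches the box lies 72 to 63 bases before the start. A CArG box, whose pattern is its own reverse complement, was found in 535 of 32851 promoter windows (1.63%). Of the 219 tested genes with such a window, 12 were higher (5.48%) and 6 were lower (2.74%) in both NAc libraries, beside 3.44% and 2.49% of all tested genes. These shares are a description and say nothing of binding.

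Genes that every cell uses gave no call. Among 62 ribosomal protein genes 0 were called by edgeR (2 at an unadjusted p under 0.05) and 0 by DESeq2, the smallest p belonging to *Rps12* at 23.1 and 23 CPM in NAc and 18.9 and 19.4 CPM in mPFC (0.26 ± 0.092, adjusted p = 0.123). Among 48 nuclear-encoded respiratory chain genes 0 were called by edgeR (1 higher and 1 lower at an unadjusted p under 0.05) and 0 by DESeq2, the smallest p belonging to *Ndufa3* at 24.6 and 23.6 CPM in NAc and 19.7 and 20.5 CPM in mPFC (0.26 ± 0.094, adjusted p = 0.129). The median log2 ratio was -0.027 and 0.0031 over the ribosomal genes and -0.053 and -0.0030 over the respiratory genes. Without NAc replicate 2 the test called 3 ribosomal genes higher and 1 lower, and 2 respiratory genes higher and 7 lower.

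**Figure D3:**
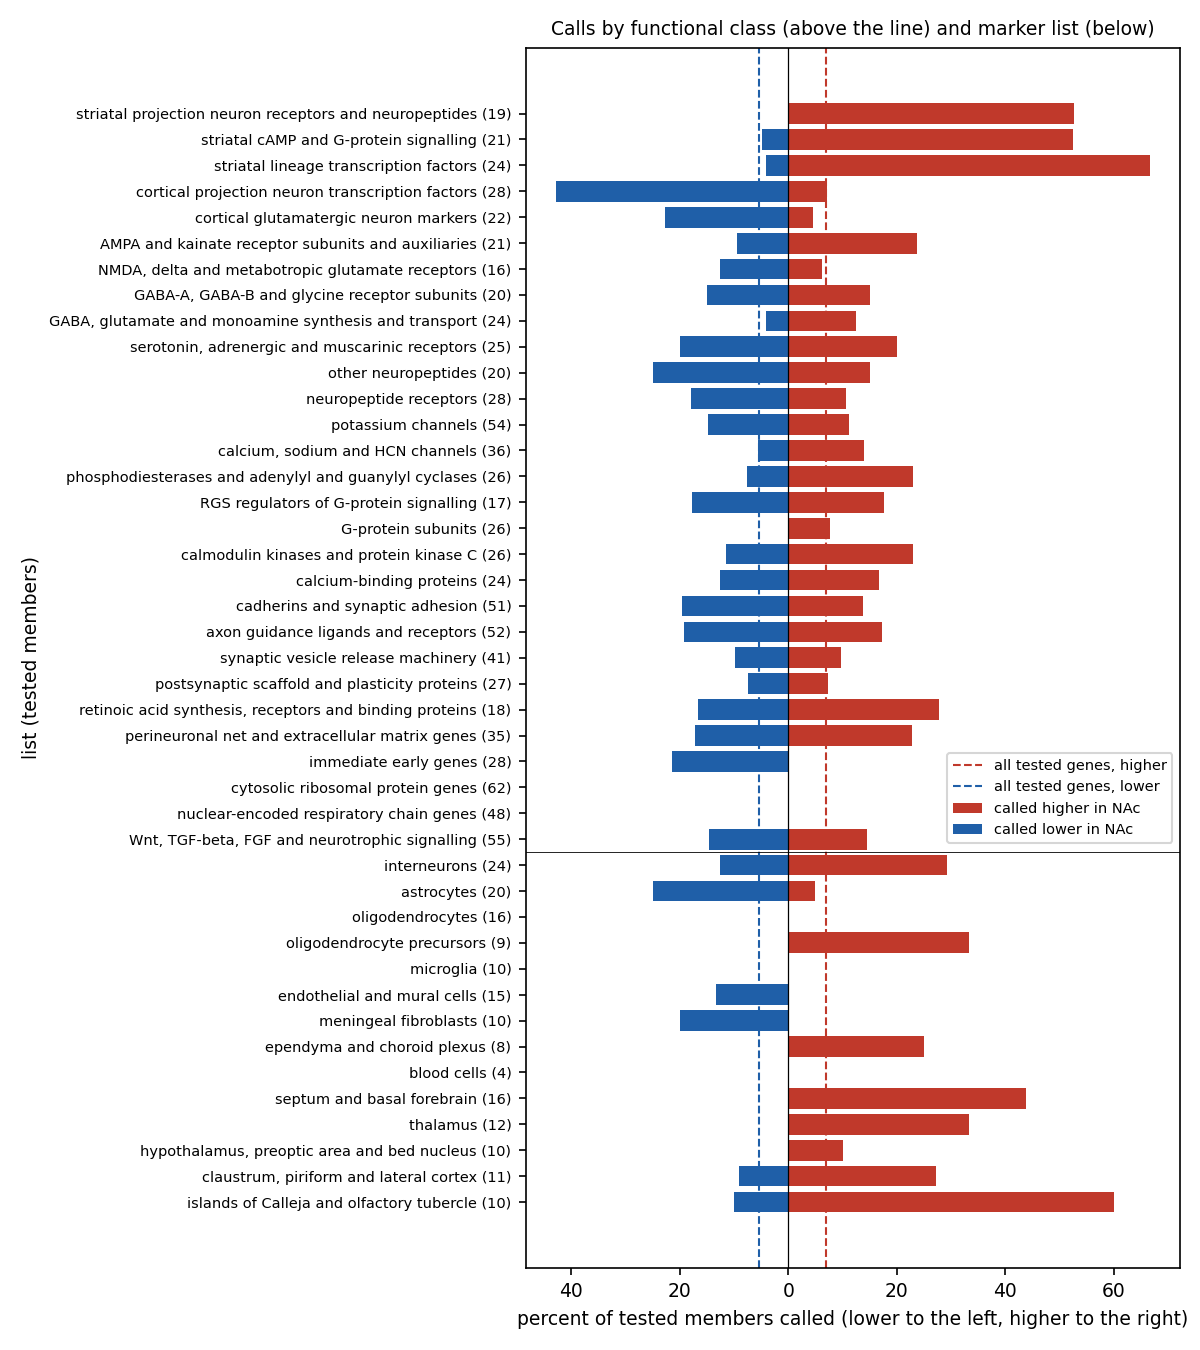
Percent of the tested members of each list that were called higher (red, to the right) or lower (blue, to the left) in NAc, with the number of tested members in parentheses. Dashed lines give the share over all tested genes (7.01% higher and 5.35% lower). Striatal lineage transcription factors, the islands of Calleja and olfactory tubercle list and the other 2 striatal classes extend furthest to the right, cortical transcription factors extend furthest to the left, and ribosomal and respiratory genes have no bar.

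Marker lists of other cells showed what else the samples held. Of 24 interneuron markers, 7 were higher in NAc (29.2%) and 3 were lower (12.5%), beside 7.01% and 5.35% of all genes. *Lhx8*, a LIM homeobox gene of cholinergic neurons, had 451 and 65 reads in NAc and 2 and 2 in mPFC (adjusted p = 0.0306 by edgeR). *Nkx2-1*, which specifies ventral forebrain interneurons and stays on in those of the striatum, was at 2.52 and 0.73 CPM in NAc and 0.0663 and 0.0451 CPM in mPFC (4.83 ± 0.79, adjusted p = 0.0221). *Sp8*, *Calb2*, *Adarb2*, *Chat* and *Chodl* were also higher, and *Kit* and *Lhx6* were lower with *Pvalb*.

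Calls among glial and vascular markers differed from list to list, beside 7.01% higher and 5.35% lower over all genes. Of 20 astrocyte markers 5 were lower in NAc and 1, *Crym*, was higher, none at least 2-fold in both NAc libraries. *Gjb6*, a gap junction gene, was at 12.1 and 14.3 CPM in NAc and 28.8 and 28 CPM in mPFC (-1.104 ± 0.12, adjusted p = 0.00907), and *Lhx2* was at 36.1 and 47.9 CPM in NAc and 79.9 and 87.5 CPM in mPFC (-0.997 ± 0.16, adjusted p = 0.0213). Of 16 oligodendrocyte markers 0 were called by edgeR (1 higher at an unadjusted p under 0.05, and 1 by DESeq2), but their median log2 ratio was 0.76 in NAc replicate 1 and -0.03 in replicate 2, and without NAc replicate 2 the test called 14 of them higher. Their summed level was 2635 and 1537 CPM in the NAc libraries and 1696 and 1427 CPM in mPFC. NAc replicate 1 was thus the library richest in myelin RNA, and the part of this in the calls was not tested. Of 9 markers of oligodendrocyte precursors 3 were higher, with *Lhfpl3* at 278 and 223 CPM in NAc and 78.8 and 75.8 CPM in mPFC (1.69 ± 0.14, adjusted p = 0.00538) and *Vcan* at 66.9 and 58.9 CPM in NAc and 28 and 26.8 CPM in mPFC (1.20 ± 0.11, adjusted p = 0.00598). Of 10 microglia markers 0 were called by edgeR (1 lower at an unadjusted p under 0.05) and 0 by DESeq2, of 15 endothelial and mural markers 2 were lower (*Rgs5* and *Ly6c1*), and of 10 meningeal markers 2 were lower (*Aldh1a2* and *Slc13a4*).

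Lists of neighbouring regions were examined for tissue beyond the labelled regions, beside 7.01% higher and 5.35% lower over all genes. Of 16 septum and basal forebrain markers 7 were higher in NAc and 0 were lower, with median log2 ratios of 1.03 and 1.14, and their summed level was 511.7 and 634.1 CPM in NAc and 329.2 and 349.1 CPM in mPFC. Of 10 markers of the islands of Calleja and olfactory tubercle, which adjoin the NAc, 6 were higher and 1 lower. *Stac* was at 11 and 16.4 CPM in NAc and 2.81 and 2.2 CPM in mPFC (2.45 ± 0.25, adjusted p = 0.00765) and *Sp8* was at 5.66 and 14.4 CPM in NAc and 1.92 and 1.79 CPM in mPFC (2.43 ± 0.45, adjusted p = 0.0312), both higher in NAc replicate 2. Of 11 tested markers of the claustrum, piriform and lateral cortex, which lie beside the striatum, 3 were higher (*Tfap2d*, *Trps1* and *Crym*) and 1, *Nr2f2*, was lower, with median log2 ratios of 0.30 and 0.46. Their summed level was 666.9 and 708.2 CPM in NAc and 509.7 and 517.9 CPM in mPFC. *Trps1* was at 223 and 169 CPM in NAc and 81 and 74.3 CPM in mPFC (1.33 ± 0.16, adjusted p = 0.0118), and *Nr2f2* was at 3.65 and 4.81 CPM in NAc and 10.2 and 10.4 CPM in mPFC (-1.29 ± 0.17, adjusted p = 0.0133). Of 10 tested markers of the hypothalamus, preoptic area and bed nucleus 1, *Nkx2-1*, was higher and 0 were lower (0 at an unadjusted p under 0.05 and 0 by DESeq2), and their summed level was 58.56 and 79.74 CPM in NAc and 68.75 and 64.37 CPM in mPFC. Of 12 thalamus markers 4 were higher (*Prkch*, *Calb2*, *Tcf7l2* and *Synpo2*) and 0 were lower, with median log2 ratios of 0.78 and 0.74. Their summed level was 1279 and 794.8 CPM in NAc and 536.2 and 587.1 CPM in mPFC. *Slc17a6*, the vesicular glutamate transporter of thalamic neurons, was at 3.7 and 7.58 CPM in NAc and 6.89 and 5.05 CPM in mPFC. Of 8 tested ependyma and choroid plexus markers 2 were higher. *Clic6* was at 11.2 and 2.93 CPM in NAc and 0.214 and 0.108 CPM in mPFC (5.42 ± 0.81, adjusted p = 0.0186), and *Otx2* had 168 and 88 reads in NAc and 1 and 0 in mPFC. *Ttr*, the most abundant choroid plexus gene, was at 4.11 and 1.01 CPM in NAc and 0.361 and 0.406 CPM in mPFC and did not pass (2.75 ± 0.69, adjusted p = 0.0629). Several of these genes are also made by NAc neurons, and the part of neighbouring tissue was not tested.

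**Figure D4:**
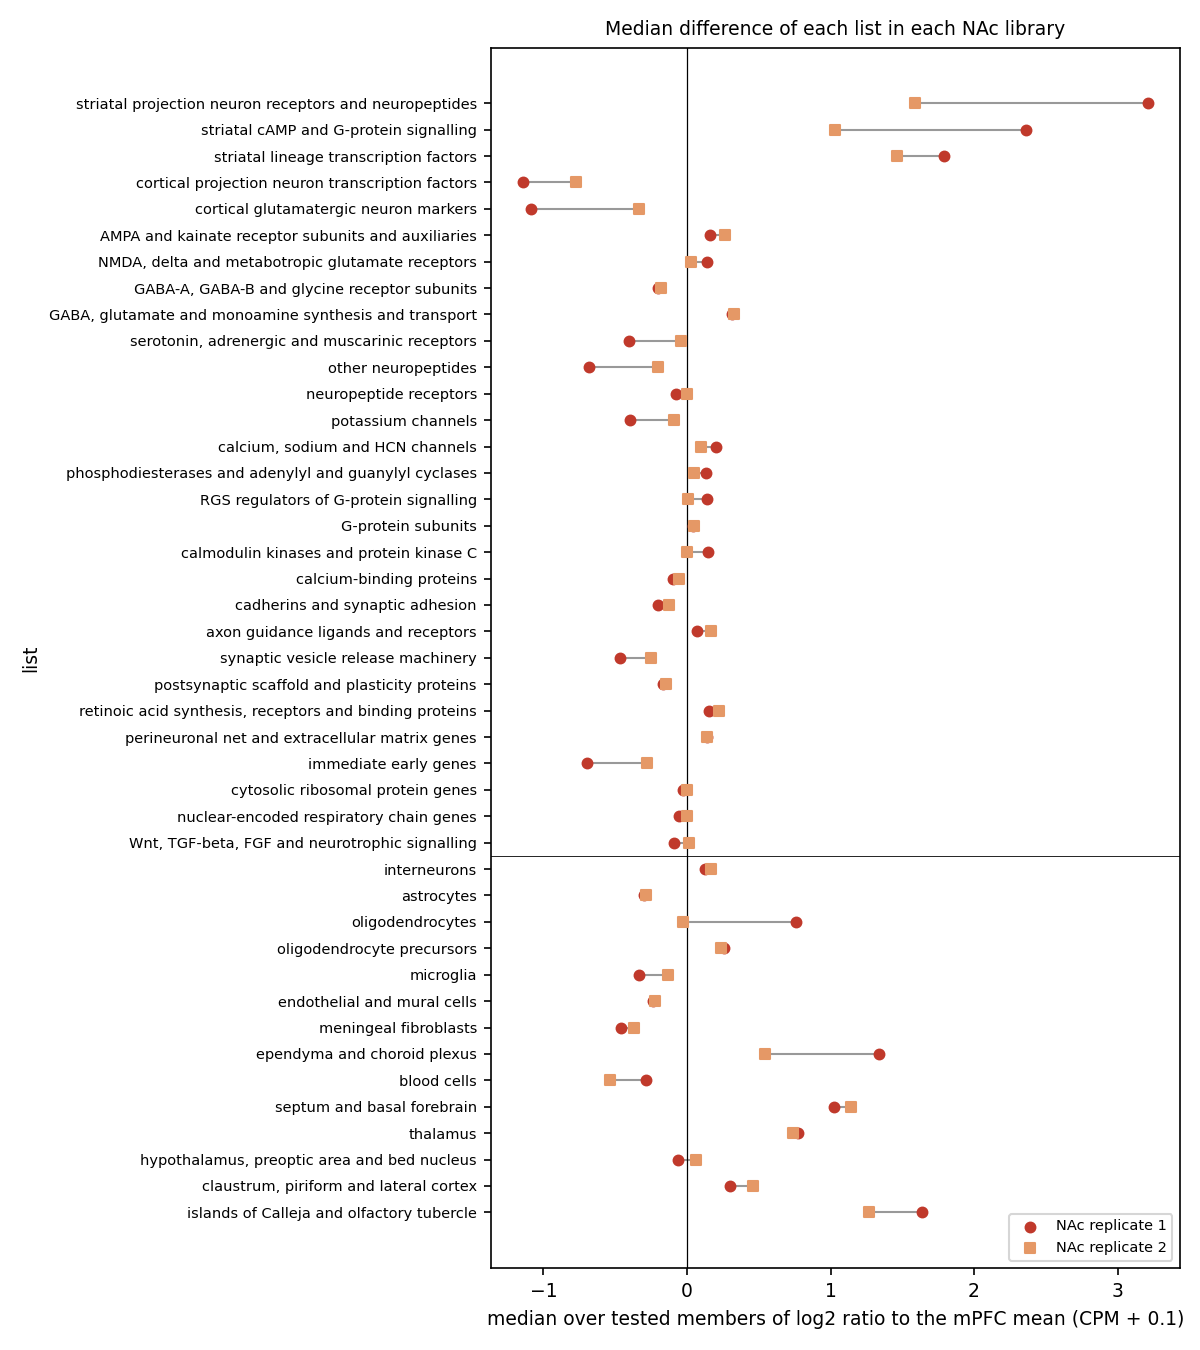
Median log2 ratio to the mPFC mean (CPM + 0.1) over the tested members of each list, for NAc replicate 1 (red circles) and replicate 2 (orange squares), with functional classes above the line and marker lists below. The NAc libraries are furthest apart in the striatal receptor and signalling classes, followed by the ependyma and choroid plexus, oligodendrocyte and glutamatergic marker lists, while septum and basal forebrain, thalamus and most glial lists nearly coincide.

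Most genes shown by both NAc libraries, 930 of 1085, were on none of the lists. The lists held only 972 of the 18300 tested genes, and 155 of those 972 were shown by both NAc libraries. Of the 12 named genes with the largest fitted difference toward NAc, several were striatal members described above (*Six3*, *Drd3*, *Isl1* and *Lhx8*). *Ankk1*, which lies next to *Drd2* (chr9:49415194-49427021), was at 15.4 and 2.65 CPM in NAc and 0.0663 and 0.0451 CPM in mPFC (7.30 ± 1.15, adjusted p = 0.0209). *Serpina9*, a serine protease inhibitor, was at 43.8 and 9.03 CPM in NAc and 0.184 and 0.162 CPM in mPFC (7.24 ± 0.97, adjusted p = 0.0146). *Dsg1c*, a desmoglein, had 1667 and 297 reads in NAc and 4 and 4 in mPFC (adjusted p = 0.0155 by edgeR). All 3 had the order of *Drd2*, with replicate 1 the higher. *Prlhr*, the receptor of prolactin-releasing hormone, had 319 and 43 reads in NAc and 1 and 2 in mPFC. *Vmn1r206*, of the vomeronasal receptor family, had 299 and 48 reads in NAc and 0 in both mPFC libraries.

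A second kind of NAc gene was at least as high in replicate 2 as in replicate 1. *Ndst4* (chr3:125404076-125728899), which sulfates heparan chains, was at 229.6 and 326 CPM in NAc and 2.48 and 2.31 CPM in mPFC (6.86 ± 0.24, adjusted p = 0.00142), a fold of 116. *Tfap2d* (chr1:19103022-19166346), an AP-2 transcription factor that is on the list of claustrum, piriform and lateral cortex markers, was at 12.7 and 12.8 CPM in NAc and 0.0884 and 0.135 CPM in mPFC (6.84 ± 0.22, adjusted p = 0.00142), a fold of 115. *Igfbpl1* was at 6.34 and 9.47 CPM in NAc and 0.0663 and 0.0992 CPM in mPFC (6.58 ± 0.35, adjusted p = 0.0023). *Abi3bp*, an extracellular matrix protein chosen here after its values were seen, was at 174 and 187 CPM in NAc and 15.1 and 14.6 CPM in mPFC (3.60 ± 0.11, adjusted p = 0.00142). The SE of the log2 difference was 0.24 for *Ndst4* against 0.84 for *Drd2*, since the NAc libraries lay closer together for *Ndst4*.

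Among the 12 named genes with the largest difference toward mPFC were several without a well-known part in neurons. *Hkdc1*, a hexokinase-like enzyme, was at 0.472 and 0.795 CPM in NAc and 17.4 and 19.6 CPM in mPFC (-4.88 ± 0.27, adjusted p = 0.0023). *Exph5* was at 1.56 and 2.76 CPM in NAc and 59.4 and 58.5 CPM in mPFC (-4.78 ± 0.29, adjusted p = 0.00262), and *Krt80*, a keratin, was at 0.185 and 0.831 CPM in NAc and 15.1 and 15.4 CPM in mPFC (-4.95 ± 0.63, adjusted p = 0.0129). *Xirp2*, an actin-binding protein known from muscle, was at 0.343 and 0.448 CPM in NAc and 10.3 and 8.72 CPM in mPFC (-4.59 ± 0.21, adjusted p = 0.00206). *Osr1*, a zinc finger factor, was at 0.101 and 0.094 CPM in NAc and 2.44 and 2.73 CPM in mPFC (-4.71 ± 0.23, adjusted p = 0.00209). All but *Exph5* were below 1 CPM in both NAc libraries. *Smoc2*, a matricellular protein, was at 0.714 and 1.8 CPM in NAc and 24.6 and 34.8 CPM in mPFC (-4.58 ± 0.47, adjusted p = 0.00818), and *Clec18a*, *Mylk3*, *Ovol2* and *Colq* showed the same pattern at lower levels. *Xirp2* and *Osr1* were nearly level in the 2 NAc libraries, whereas *Krt80* and *Ovol2* were over 4-fold apart in CPM, with replicate 2 nearer to mPFC.

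Differences that only 1 NAc library showed, at least 4-fold there and under 1.5-fold in the other, were few. There were 11 genes with a higher level and 5 with a lower level in NAc replicate 1 only. In replicate 2 only, 2 had a higher and 0 a lower level. Of these 18, 0 were called by edgeR, 10 were at an unadjusted p under 0.05 and 5 were called by DESeq2. They were picked for a wide gap between the NAc libraries, so the lack of edgeR calls says little about them. *Calcr*, the calcitonin receptor, was at 1.15 and 0.0795 CPM in NAc and 0.0295 and 0.0451 CPM in mPFC, and *Zbtb7c* was at 91.6 and 23.2 CPM in NAc and 14.9 and 18.3 CPM in mPFC. *Ccdc3* was at 2.57 and 17.6 CPM in NAc and 19.3 and 21.9 CPM in mPFC. *Eomes*, a T-box gene of glutamatergic neurons of the olfactory bulb, was at 0.0449 and 1.89 CPM in NAc and 0.125 and 0.171 CPM in mPFC, and *Lgr6* was at 2.26 and 18.3 CPM in NAc and 4.11 and 3.82 CPM in mPFC. Without NAc replicate 2 the log2 difference of *Eomes* turned from 2.69 to -1.69 and that of *Lgr6* from 1.37 to -0.81. The high *Eomes* and *Lgr6* values belong to that library alone, since the cocaine NAc libraries were at 0.0795 and 0.141 CPM for *Eomes* and 1.96 and 2.31 CPM for *Lgr6*.

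The direction of each difference was then read in the 4 libraries that the test had not used. In the NAc cocaine and mPFC social defeat libraries, 1082 of the 1085 genes (99.72%) had both NAc libraries on the same side of both mPFC libraries as in the home cage, and 0 had them on the opposite side. Of the 630 higher genes 629 did so, while 37.4% of all tested genes had both cocaine libraries above both defeat libraries, and of the 455 lower genes 453 did so, while 36.8% of all genes had the reverse. Region and experience differ together in those libraries, which carry the same split between the numbers 1 and 2. *Drd2* was at 222 and 66.6 CPM in the cocaine NAc libraries and at 2.97 and 2.45 CPM in the defeat mPFC libraries. *Fezf2* was at 4.61 and 10.3 CPM against 72.2 and 64.4 CPM. *Egr2* was at 4.71 and 4.76 CPM against 17.2 and 17.2 CPM, higher than in the home cage in both regions and still lower in NAc. The regional order of these genes was therefore the same in exposed mice as in home-cage mice.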

How the data were processed

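The submitters' processing notes name the aligner STAR 2.7.1a, the counter featureCounts and the build mm10 for these total RNA libraries. The counting options and gene annotation were not given in the sources used here. The deposited tables, 1 per region, hold raw counts per gene symbol, whole numbers with no normalization. Gene positions came from GENCODE M21 (GRCm38), which matched 33047 of 33885 symbols. Among protein-coding genes that lie inside another gene, 327 of 329 on the same strand and 496 of 497 on the opposite strand had 0 counts in every library, against 2020 of 20602 others (9.805%). Genes with such 0 counts, among them the microglial *P2ry12* and the somatostatin receptor *Sstr2*, could not be tested.

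The tables were joined by symbol. With edgeR 4.0.16 in R 4.3.3, genes passed filterByExpr, TMM factors were computed, and NAc was tested against mPFC in the 4 home-cage libraries with estimateDisp, glmQLFit and glmQLFTest (two-sided, no covariate, Benjamini-Hochberg over 18300 genes, called under 0.05). The SE is the absolute log2 fold change over the square root of the F value. The test was run on counts simulated with the same spread for all genes and both regions. Such counts cannot check the test where the NAc pair varies more than the mPFC pair, as it does here. Promoter sequences are RefSeq's.

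The 29 functional classes and 14 marker lists (1029 genes, 972 tested) and the comparison itself were chosen with earlier results of these data known. Named genes were up to 4 members per list with the largest difference shown by both NAc libraries (or the 2 with the smallest p where fewer than 2 were), the 12 largest differences each way at a mean of at least 1 CPM in a region, fixed genes (among them *Drd1*, *Drd2*, *Ppp1r1b*, *Penk*, *Gnal*, *Slc17a7* and *Tbr1*), and up to 5 genes of each pattern of 1 NAc library. A few genes that these rules name are not reported here. Any other gene given with values was chosen after its values were seen. Alternatives were DESeq2 1.42.0, other size factors, other filters, all 8 libraries in the fit, the replicate number as a block, other folds and pseudocounts, and each library left out.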

Additional observations from a re-analysis of the deposited data

How the results depend on the processing

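DESeq2 called 2017 genes higher and 1621 lower, and the edgeR fit of all 8 libraries called 2484 and 2170; under the other scalings and filters both counts stayed within 1.5 times of 1283 and 979. With 1 library left out in turn, the calls ranged from 0 to 4184 higher and from 0 to 3864 lower, 0 being the count without either mPFC library; a lone library was assumed to vary as the pair of the other region. The count of genes shown by both NAc libraries was 1085. It was 0 without either mPFC library, an alternative chosen after seeing the data, and 1848 at 1.5-fold, 278 at 4-fold and 573 on CPM + 1. At 4-fold, 278 of 278 genes kept their direction in exposed mice. Of 153 named genes, 153 kept direction and call under both other scalings. All 129 called ones lost the call without either mPFC library, and *Eomes* and *Lgr6* ranged from -1.69 to 3.68 and from -0.81 to 2.20 (log2) with 1 library left out, reversed without NAc replicate 2 and highest without NAc replicate 1.

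With the replicate number as a block, edgeR called 1201 genes higher and 973 lower, 1024 were shown by both NAc libraries, and 5 named genes lost and 1 gained a call. Deviations of same-numbered libraries correlated at 0.206 over 18300 genes. With 2 pairs and no label that ties a NAc to an mPFC library, the numbers were not taken to pair the samples.

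Few reads in 1 region limit some genes. No fold is given for *Six3*, *Isl1*, *Lhx8*, *Otx2*, *Prlhr*, *Vmn1r206*, *Ptpn7*, *Dsg1c* and *Npw*.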
